A study of Mus musculus with 9 samples.

Results

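The 9 genes Kdm2a, Kdm2b, Fbxl19, Tet1, Tet2, Tet3, Cxxc4, Cxxc5 and Mbd1 encode proteins that read non-methylated CpG sites through a CXXC domain or that oxidise methylated cytosine, and they were taken by name out of 21938 protein-coding genes of the mouse annotation. Each annotated transcript start (TSS) of these genes was placed on a map of non-methylated islands (NMIs) from C127 cells, a mouse mammary epithelial cell line, to ask which of a gene's alternative promoters lies in non-methylated DNA. Of the 9 libraries labelled as C127 (1 BioCAP and its input, 3 ATAC and their input, and 3 of RNA labelled with 4-thiouridine), 1 was used, through the NMI list made from BioCAP, and the others were not analysed here. In BioCAP, sonicated genomic DNA is bound to an immobilised CXXC domain from KDM2B, so that the reagent is a part of the product of 1 of the 9 genes. The list held 13491 NMIs with a median width of 990 bp, and with 1 library and no score per NMI there was no replicate error, no known read depth and no test for any value. Positions are on mm10, counted from 1. The study describes a larger set of NMIs than this list holds, so that a start outside the list may have an NMI in that set, and its methylation was not measured here.

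A CXXC domain is a small zinc finger that in many, though not all, cases binds CpG sites only when they carry no methyl group. CpG islands, which hold most promoters of widely expressed genes, are such non-methylated sites in bulk. KDM2A and KDM2B join this domain to a JmjC domain that removes methyl groups from histone H3 lysine 36, and KDM2B also brings a variant Polycomb complex to CpG islands. FBXL19 is their relative without a JmjC domain. The TET enzymes oxidise 5-methylcytosine to 5-hydroxymethylcytosine and start its removal. TET1 and TET3 can carry a CXXC domain of their own, whereas TET2 has none and is thought to have lost it to the neighbouring gene Cxxc4, which encodes a regulator of Wnt signalling and of TET2, as does its paralog Cxxc5. MBD1 holds a methyl-CpG-binding domain beside its CXXC domains and works with the histone methyltransferase SETDB1.

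An NMI covered a TSS of 7 of the 9 genes, compared with 47.5% of all protein-coding genes. The genes with an NMI were Kdm2a, Kdm2b, Fbxl19, Tet2, Tet3, Cxxc5 and Mbd1, and those without were Tet1 and Cxxc4. The 9 genes had more annotated starts than most, with a median of 7 distinct TSSs (range 5 to 19) against 3 (range 1 to 58) over all protein-coding genes, which gives an NMI more places to be counted. Per start, 32 of their 81 TSSs lay in an NMI, against 38.4% of the distinct TSSs of all protein-coding genes, so that by this count the 9 genes stood near the background. In the map of promoters and NMIs along each gene, the NMIs of the 7 genes sit near the start of the gene, with further NMIs inside Kdm2a, Kdm2b, Tet3 and Cxxc5 and at the end of Fbxl19.

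**Figure D1:**
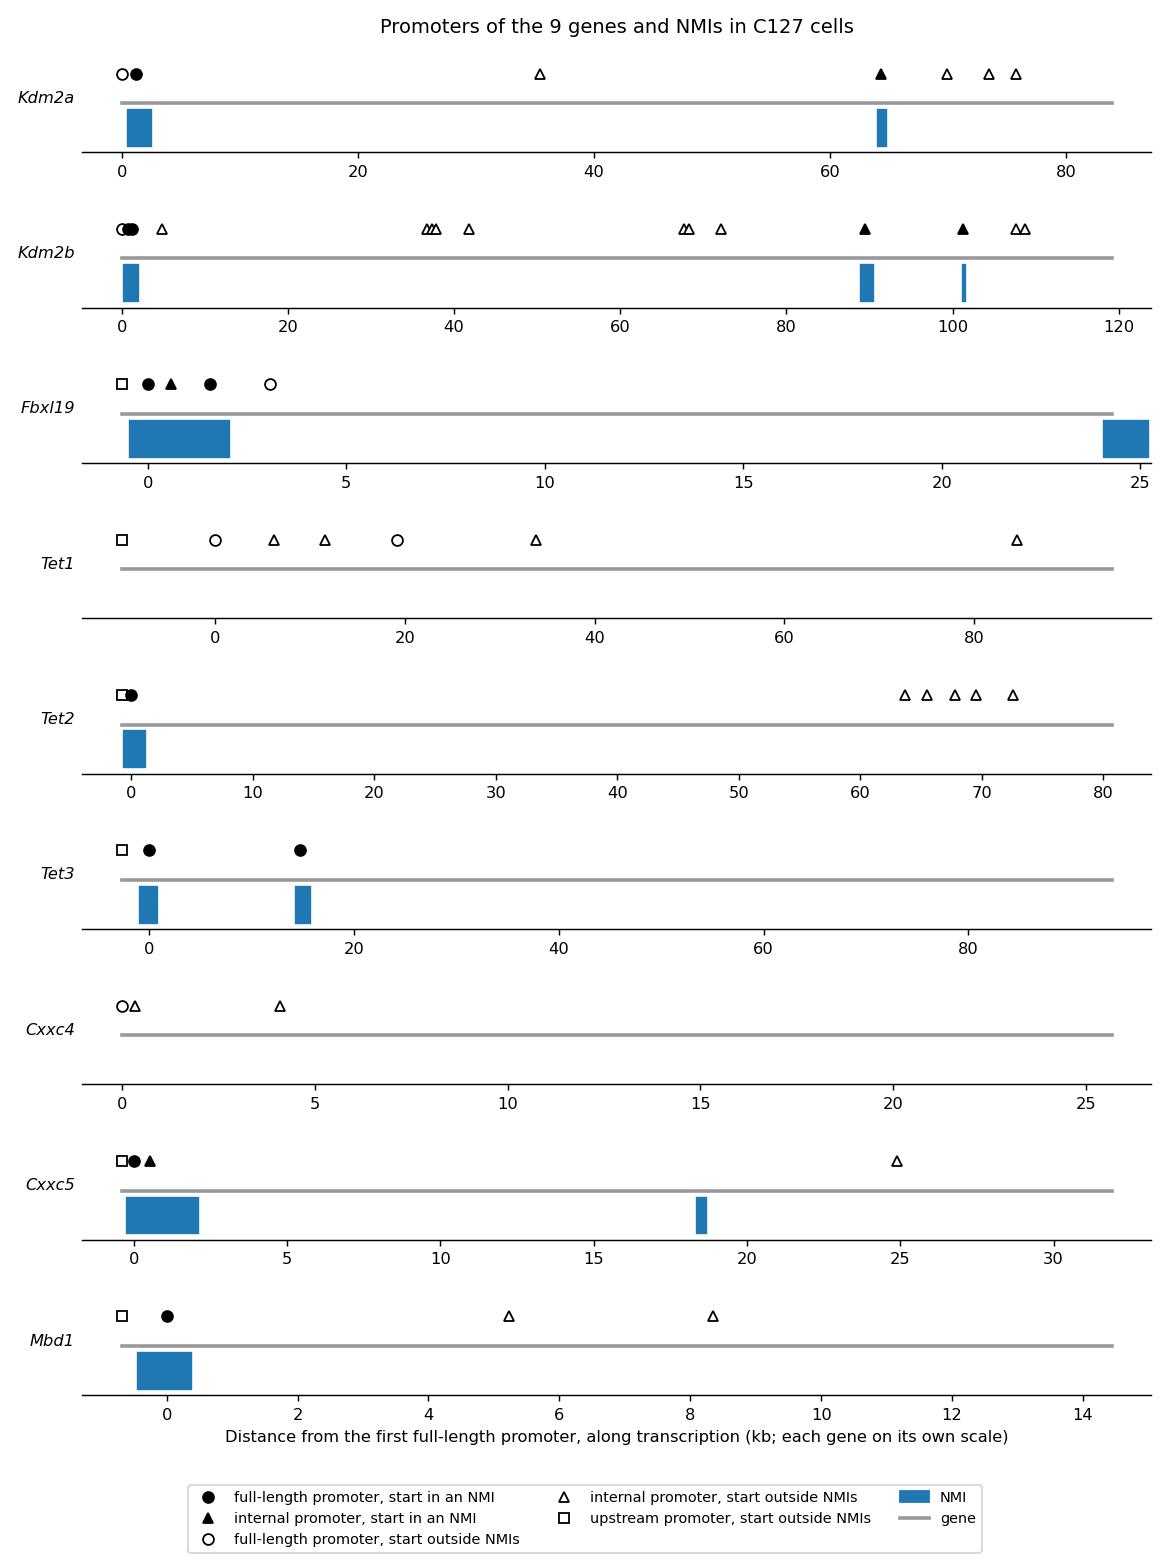
Position of each promoter (symbols) and each NMI (blue blocks) along the 9 genes, in kb from the first full-length promoter in the direction of transcription, with each gene on its own scale. Filled symbols have a TSS in an NMI: 10 of 16 full-length promoters (circles), 5 of 33 internal promoters (triangles) and 0 of 6 upstream promoters (squares).

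Starts of a gene within 300 bp of each other were joined to a promoter, which gave 55 promoters. A promoter was called full-length where a transcript from it coded for at least 90% of the longest annotated protein of the gene, internal where it lay downstream of the first such promoter and coded for less or for nothing, and upstream otherwise. By this rule, 15 of the 55 promoters lay in an NMI, against 23.4% over all protein-coding genes. The NMIs were at full-length promoters in 10 of 16 cases, against 39.6% over all genes. They were at internal promoters in 5 of 33 cases, against 6.32% over all genes. Among the 5, the promoters of Fbxl19-202 and Cxxc5-203 shared the NMI of a full-length promoter of their gene. When transcripts annotated as incomplete at their 5′ end were left out, 4 of 27 internal promoters were covered, against 7.11%. Of the 6 upstream promoters, 0 were covered, against 27.9% over all genes. A start within 250 bp of an NMI was found in 4 of the 6, against 32.8% over all genes. Transcripts that are annotated as ending early code for a short protein on paper only, so that several promoters fell in the internal or upstream class although their transcripts began with the same first 20 residues as the longest protein. This was the case for promoters of Fbxl19, Tet1, Tet2 and Cxxc5. The rule made no use of the support level of a transcript in the annotation, between 1 (best) and 5 (weakest). Among the transcripts that represent full-length promoters, the level was 1 for Kdm2a-201, Kdm2b-202, Fbxl19-203, Fbxl19-201, Tet2-204, Tet3-203 and Cxxc5-201. It was 5 for Kdm2a-202, Kdm2b-203, Kdm2b-205, Fbxl19-207, Tet1-206, Tet1-201, Tet3-202 and Cxxc4-203, and was not given for Mbd1-202.

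The outermost annotated TSS of each gene lay outside NMIs in all 9 genes (0 of 9), against 42.5% of protein-coding genes with an NMI at that TSS. The distance from it to the nearest NMI was 114 bp in Tet2, 121 bp in Kdm2b, 136 bp in Cxxc5, 172 bp in Fbxl19, 230 bp in Mbd1 and 485 bp in Kdm2a. It was 1734 bp in Tet3, 11079 bp in Tet1 and 691459 bp in Cxxc4. In 6 of the 9 genes the outermost start therefore missed the edge of the NMI by less than 500 bp. In Fbxl19, Tet1, Tet2, Tet3, Cxxc5 and Mbd1 the outermost start is also the upstream promoter counted above. The share of 42.5% for the outermost start was not matched for the number of starts per gene. With the TSS of the longest protein instead, 6 of 9 genes were covered, against 43.6% of all protein-coding genes. Kdm2a was the gene lost. Its outermost transcript Kdm2a-201, taken there, and its covered transcript Kdm2a-202 code for the same 1161 residues.

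To show the sequence that these promoters present to a CXXC domain, bases just before 7 starts are printed here with each CpG in capitals. They were read 5′ to 3′ from the promoter windows of NCBI RefSeq (GRCm38.p6, 250 bases before to 50 after a start), which matched 6 of the 9 genes with 10 windows, and bases in annotated exons were left out. The pair from Kdm2b contrasts its full-length and its internal promoter, the next 3 are other promoters in an NMI, and the last 2 are from the genes without an NMI.
Kdm2b full-length promoter, chr5:122988537-122988627, strand minus: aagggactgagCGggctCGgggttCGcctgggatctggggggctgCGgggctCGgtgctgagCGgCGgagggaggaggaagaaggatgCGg
Kdm2b internal promoter, chr5:122900368-122900487, strand minus: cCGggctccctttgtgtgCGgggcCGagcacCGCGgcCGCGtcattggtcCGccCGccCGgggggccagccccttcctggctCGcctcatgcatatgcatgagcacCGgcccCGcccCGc
Tet2 full-length promoter, chr3:133544391-133544510, strand minus: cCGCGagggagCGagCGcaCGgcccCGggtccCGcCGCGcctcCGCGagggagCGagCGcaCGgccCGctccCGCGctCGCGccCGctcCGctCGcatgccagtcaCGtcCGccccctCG
Tet3 second promoter, chr6:83441679-83441798, strand minus: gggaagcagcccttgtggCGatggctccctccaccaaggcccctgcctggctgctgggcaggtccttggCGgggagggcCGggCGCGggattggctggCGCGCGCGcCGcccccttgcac
Fbxl19 second full-length promoter, chr7:127746655-127746774, strand plus: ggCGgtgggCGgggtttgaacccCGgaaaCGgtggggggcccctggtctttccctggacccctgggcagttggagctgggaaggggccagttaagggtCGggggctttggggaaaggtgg
Tet1 promoter, chr10:62887325-62887412, strand minus: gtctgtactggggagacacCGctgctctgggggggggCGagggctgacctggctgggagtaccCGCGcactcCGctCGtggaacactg
Cxxc4 full-length promoter, chr3:134236375-134236483, strand plus: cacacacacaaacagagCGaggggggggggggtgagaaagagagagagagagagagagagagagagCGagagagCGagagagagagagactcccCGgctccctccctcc

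The printed run before the internal Kdm2b start held 14 CpG sites in 120 bases, and that before its full-length start held 8 in 91 bases. The Tet2 run was the densest, with 25 CpG sites in 120 bases, and the Tet3 run held 10 in 120 bases. The Fbxl19 run was covered by an NMI although it held only 5 CpG sites in 120 bases. The Tet1 run outside NMIs held 6 CpG sites in 88 bases, and the Cxxc4 run held 4 in 109 bases, part of which is a repeat of the letters ga. Over the whole windows of 300 bases the counts were 57 CpG sites for Tet2 and 49 and 47 for the 2 overlapping windows of the internal Kdm2b promoter. These counts exceeded 99.8%, 99.0% and 98.6% of the 32851 RefSeq windows, whose median was 7. The windows at the full-length Kdm2b starts held 28 CpG sites at 122989099, the start of Kdm2b-202, and 18 at 122988507. The window of Cxxc4 held 26 CpG sites, more than 83.1% of all windows, and that of Tet1 held 17, more than 68.6%, so that neither gene was poor in CpG by this measure. The letters GGGCGG on either strand, the GC box bound by Sp and Klf factors, occurred in 9 of the 10 windows, compared with 35.7% of all windows. The window without it was that of the full-length Kdm2b promoter at 122988507. The letters CCGGAAG (the core of an ETS site), TATAAA (the TATA box) and TTTCGCGC (an E2F core) occurred in 0 of the 10 windows, compared with 8.86%, 13.6% and 0.323% of all windows. The 10 windows held between 14 and 57 CpG sites each, against the median of 7, and the motif shares over all windows were not matched for CpG. No searched motif lies within another, and windows of the same gene partly share sequence.

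Kdm2a had 2 separate NMIs at its starts. The NMI at the full-length promoter (chr19:4395747-4397800, 2054 bp) held 180 CpG sites, or 8.76 per 100 bp, and the starts of 6 transcripts. Among them was Kdm2a-202, whose protein carries the JmjC iron-binding motif at residue 211 and the CXXC domain at residue 571. The outermost promoter, that of Kdm2a-201, lay 485 bp beyond the edge although its surroundings held 8.69 CpG sites per 100 bp and it lay in the same predicted CpG island. The internal NMI (chr19:4333493-4334340, 848 bp) was 64284 bp downstream of the Kdm2a-201 start, at the start of Kdm2a-212. That transcript codes for 292 residues before its annotation ends, with the CXXC domain at residue 131 and without the JmjC motif, and 240 of its residues match residues 493 to 732 of the full-length protein. The internal NMI was poor in CpG, with 28 sites or 3.30 per 100 bp, a density above that of only 2.11% of NMIs at TSSs, and no predicted CpG island lay there. The other 4 internal promoters of Kdm2a were between 5082 and 28547 bp from an NMI.

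Kdm2b had 3 separate NMIs at its starts. The NMI at the full-length promoters (chr5:122987742-122989702, 1961 bp) held 101 CpG sites, or 5.15 per 100 bp, with no predicted CpG island, and it also covered a start of the non-coding gene A930024E05Rik. It covered the promoters of Kdm2b-202 and Kdm2b-203, which code for 1309 and 1303 residues, and missed that of Kdm2b-205 (1254 residues) by 92 bp. The second NMI (chr5:122899238-122900927, 1690 bp) lay 89468 bp downstream of the Kdm2b-205 start, at the start of Kdm2b-201, the short isoform. It held 191 CpG sites, or 11.3 per 100 bp, more than 97.2% of NMIs at TSSs, and lay wholly in a predicted CpG island. Kdm2b-201 codes for 776 residues with the CXXC domain at residue 53 against residue 586 in the full-length protein. It shares its last 758 residues with the full-length protein and lacks the 551 residues before them, which include the JmjC motif at residue 210. The NMI at the short isoform had 2.19 times the CpG density of the NMI at the long isoform. The third NMI (chr5:122888235-122888683, 449 bp) lay wholly in annotated exons at the start of Kdm2b-217, a transcript annotated with an incomplete 5′ end, whose true start is not known. The starts of Kdm2b-214 and Kdm2b-215 were as rich in CpG as covered promoters, at 5.79 and 6.49 sites per 100 bp, and lay 35236 and 35752 bp from an NMI.

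Fbxl19 had a single NMI at its starts, the widest of the 9 genes (chr7:127744715-127747269, 2555 bp, 142 CpG sites, 5.56 per 100 bp). It covered the full-length promoters of Fbxl19-203 and Fbxl19-201, which code for the same 674 residues with the CXXC domain at residue 19, and the promoter between them. That internal promoter gives Fbxl19-202, whose 382 residues are the last 382 of the full-length protein and lack the CXXC domain. The same promoter holds the start of Fbxl19-205, which is annotated for the first 61 residues of the full-length protein, CXXC domain included, and ends there. The third promoter of the full-length class was outside, with the start of Fbxl19-207 (631 residues) at 1005 bp and that of Fbxl19-204 (558 residues) at 878 bp from the NMI. A second NMI at the end of the gene (chr7:127769260-127770419, 1160 bp) held no Fbxl19 start and covered a start of the neighbouring gene Orai3, a calcium channel subunit.

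**Figure D2:**
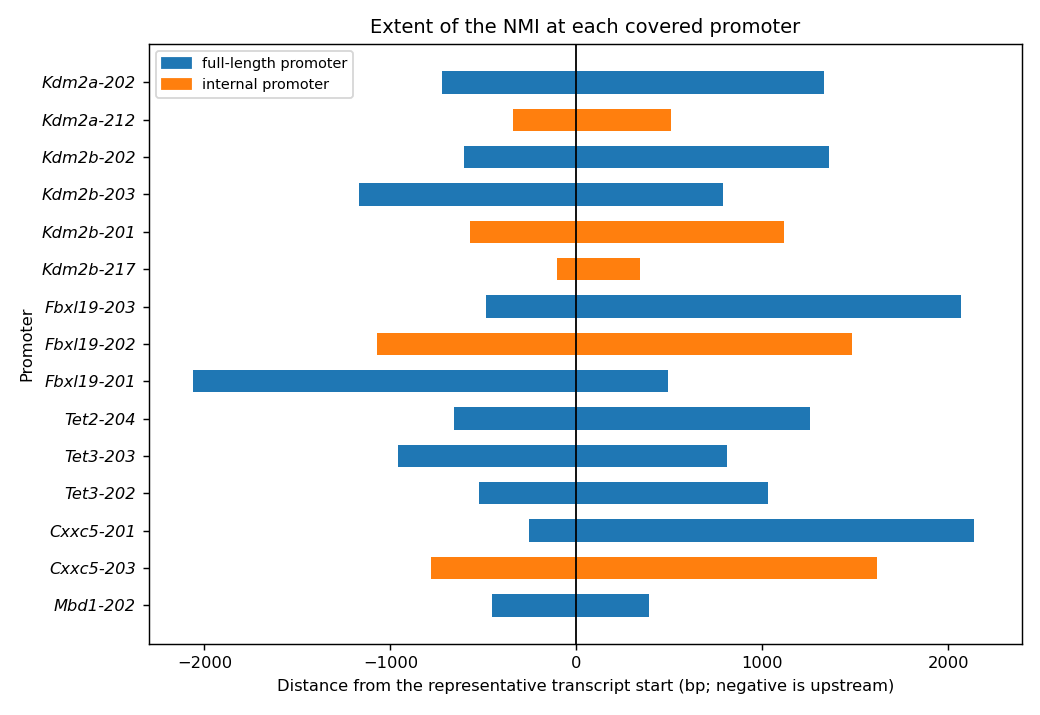
Extent of the NMI around the representative start of each of the 15 covered promoters, in bp along transcription, for full-length (blue) and internal (orange) promoters. Rows of the same gene can show the same NMI from different starts. The NMI at Fbxl19-201 reached 2060 bp upstream, whereas that at Kdm2b-217 reached 103 bp upstream and 345 bp downstream.

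Tet1 had no NMI at any of its 10 starts. The first full-length promoter, that of Tet1-206 (2039 residues, CXXC domain at residue 574), lay 20957 bp from the nearest NMI. That NMI was at Slc25a16 (chr10:62920075-62921377), a mitochondrial carrier gene. The other full-length promoter, that of Tet1-201 (2007 residues, CXXC domain at residue 574), held 3.20 CpG sites per 100 bp and lay 40061 bp from an NMI. CpG density around the 10 Tet1 starts ran between 0.500 and 5.89 sites per 100 bp. The densest was the start of Tet1-207, followed by that of Tet1-210 in the same promoter at 3.80. A predicted CpG island of 1501 bp (chr10:62886068-62887568) lay at these 2 starts and had no NMI. Both transcripts are annotated for 47 residues that equal the first 47 of the full-length protein, and the RefSeq start of Tet1 is that of this promoter. With all promoters ranked into 10 classes by CpG density, 58.6% of the class that fits the density at Tet1-210 and 76.4% of the class that fits that at Tet1-207 lay in an NMI. The nearest NMI downstream of the Tet1-206 start was that of Ccar1, 106 kb from that start and 21868 bp from the start of Tet1-203.

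Tet2 had an NMI at its full-length promoter (chr3:133543113-133545025, 1913 bp), which held 134 CpG sites, or 7.0 per 100 bp. It covered 4 starts, among them that of Tet2-204 (1920 residues), and no CXXC domain was found in any annotated Tet2 protein. The upstream start of Tet2-205 lay 114 bp outside. The 5 internal promoters held at most 1.40 CpG sites per 100 bp and lay between 62431 and 71296 bp from the NMI, and 4 of them gave retained-intron transcripts.

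Tet3 had 2 separate NMIs, and both of its promoters in the full-length class were covered. The NMI at Tet3-203 (chr6:83455582-83457350, 1769 bp) held 171 CpG sites, or 9.67 per 100 bp, and lay in a predicted CpG island. Tet3-203 codes for 1803 residues with the CXXC domain at residue 57. The second NMI (chr6:83440643-83442200, 1558 bp), at Tet3-202, 14717 bp downstream of the Tet3-203 start, held 77 CpG sites, or 4.94 per 100 bp, with no predicted CpG island. It also covered a start of B230319C09Rik. The protein of Tet3-202 has 1668 residues, 92.5% of the longest, and lacks the first 135 residues and with them the CXXC domain. The proteins of Kdm2a-212 and Kdm2b-201 keep the CXXC domain and lack the JmjC motif, whereas in Tet3 the protein from the downstream start keeps the shared end of the enzyme and lacks the CXXC domain. The outermost start, that of Tet3-204, lay 1734 bp outside in DNA with 0.799 CpG sites per 100 bp.

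Genes with starts in at least 2 separate NMIs were Kdm2a, Kdm2b and Tet3, 3 of the 9, against 1.86% of all protein-coding genes. That background was not matched for the number of starts, of which these genes had a median of 7 against 3 over all protein-coding genes. All 3 kept 2 NMIs when transcripts with incomplete 5′ ends were left out. With full length set at 100% of the longest protein, Tet3-202 counted as internal, and 8 of 11 full-length promoters were covered, against 40.4% over all genes, and 7 of 37 internal ones, against 7.08%.

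Cxxc4 had no NMI at any of its 5 starts, and its nearest NMI was that of Tet2, 691 kb upstream. Its full-length promoter, that of Cxxc4-203 (366 residues, CXXC domain at residue 307), held 6.19 CpG sites per 100 bp. In the class of all promoters with this density, 76.4% lay in an NMI. The promoter of Cxxc4-201, whose 198 residues hold the CXXC domain at residue 139, had 2.90 CpG sites per 100 bp, and that of the non-coding Cxxc4-205 had 5.00. Predicted CpG islands of 1078 and 1250 bp lay at the full-length start and at Cxxc4-205, and neither had an NMI. Tet2 and Cxxc4 are transcribed away from each other from outermost starts 691 kb apart, with 0 other protein-coding genes and 0 NMIs wholly between them. Of this pair, only Tet2 had an NMI at a start.

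Cxxc5, the paralog of Cxxc4, had an NMI of 2398 bp at its full-length promoter (chr18:35829533-35831930) with 209 CpG sites, or 8.72 per 100 bp. It covered Cxxc5-201 (317 residues) and the promoter of Cxxc5-203, whose 205 annotated residues are the first 205 of the same protein, and also a start of Gm29417. The CXXC domain of Cxxc5 was found only with a pattern that dropped a fixed glycine, at residue 258. An intronic NMI of 352 bp (chr18:35848128-35848479) lay 6208 bp from the nearest start of the gene, and the promoter of Cxxc5-204 was not covered. Mbd1 had an NMI of 848 bp (chr18:74267835-74268682) with 60 CpG sites, or 7.08 per 100 bp, at its full-length promoter. It covered Mbd1-202, whose 644 residues hold 3 CXXC domains, and Mbd1-201, whose 588 residues hold 2. Whether each of these domains binds non-methylated CpG sites was not tested. The promoters of Mbd1-204 and Mbd1-206 further downstream were 4836 and 7952 bp outside.

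The 11 NMIs at starts of these genes had a median width of 1769 bp (range 449 to 2555 bp), against 1168 bp (range 117 to 11019 bp) for the 9887 NMIs at any TSS. Their median CpG density was 7.0 per 100 bp against 6.85, and their ratio of observed to expected CpG was 0.764 against 0.761. Among the 11 NMIs the density ran between 3.30 at the internal Kdm2a start and 11.3 at the internal Kdm2b start. Around 1 representative start of each promoter (500 bp on each side), the 15 promoters in an NMI had a median of 6.39 CpG sites per 100 bp (range 2.40 to 13.0), and the 40 promoters outside had a median of 2.00 (range 0 to 8.69). The corresponding medians over all protein-coding genes were 6.79 in NMIs and 1.30 outside. When all promoters were ranked by density, 8 of the 13 promoters of these genes in the top 2 of 10 classes were covered, against 79.0% of all promoters there. In the next 2 classes 7 of the 20 were covered, against 36.1%. Of the 22 in the lowest 6 classes, 0 were covered, near the background there. Over all promoters the share was 1.89% in class 6 and 0.493% or less in each lower class. The 5 promoters outside NMIs in the top 2 classes were those of Kdm2a-201, Kdm2b-214, Kdm2b-215, Tet2-205 and Cxxc4-203. In the plot of CpG density by promoter, covered and uncovered promoters of these genes overlap between 2.40 and 8.69 sites per 100 bp.

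**Figure D3:**
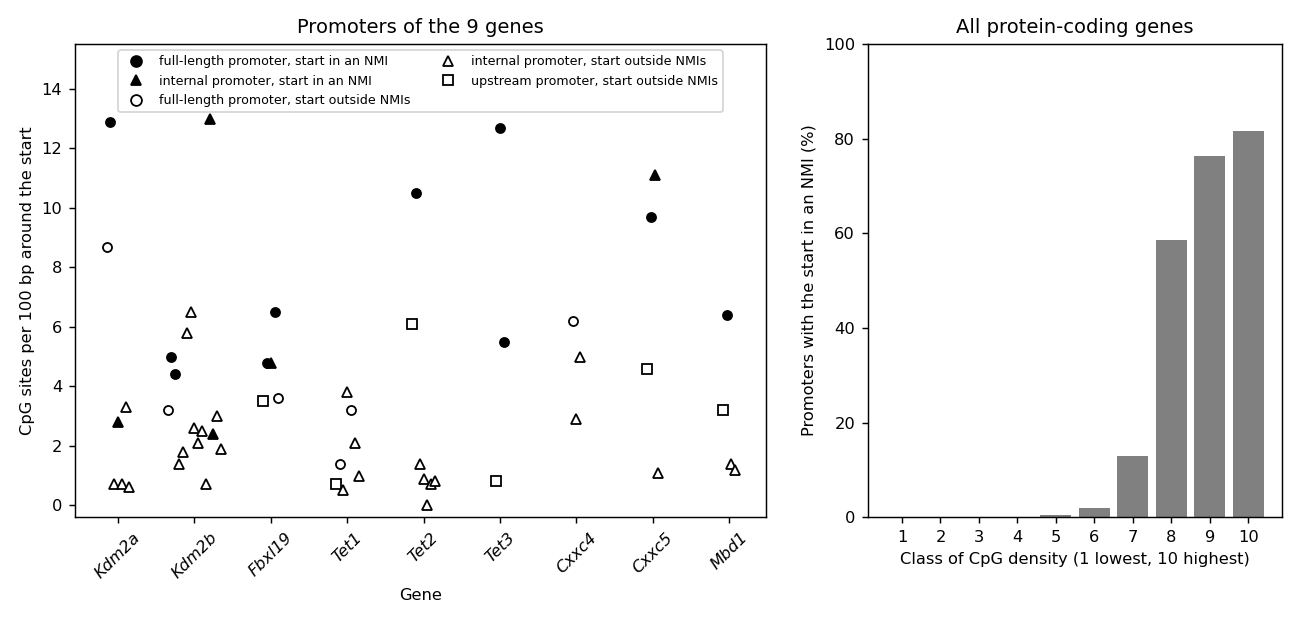
Left, CpG sites per 100 bp around the representative start of each promoter of the 9 genes, with filled symbols for a TSS in an NMI. Right, share of the promoters of all protein-coding genes with a TSS in an NMI, by class of CpG density (10 classes), which reached 81.5% in the densest class and was 0.493% or less in each of the 5 least dense.

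CpG islands predicted from sequence alone (at least 500 bp, GC content of at least 55% and ratio of observed to expected CpG of at least 0.65) lay at 10 places among the starts of these genes. Of the 10 islands, 7 overlapped an NMI, against 78.1% of predicted islands at protein-coding TSSs. The covered share of the 7 islands was 100% in Fbxl19, 92.3% in Tet3, 89.0% in Kdm2b, 76.9% in Cxxc5, 75.2% in Tet2, 70.0% in Mbd1 and 58.8% in Kdm2a. The 3 islands without an NMI were those of Tet1 and Cxxc4. Conversely, 4 of the 11 NMIs at starts of these genes, including both the full-length NMI of Kdm2b and the second NMI of Tet3, overlapped no predicted island, against 26.9% of all NMIs at a TSS.

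**Figure D4:**
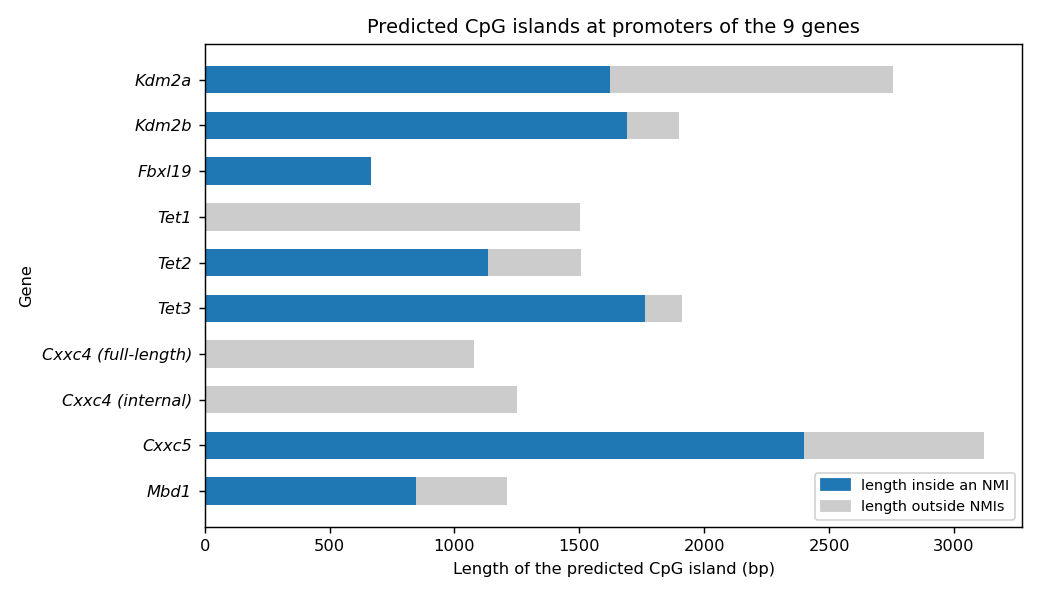
Length in bp of each predicted CpG island at a promoter of the 9 genes, split into the length inside an NMI (blue) and outside NMIs (grey). The islands of Tet1 and Cxxc4 have no part in an NMI, and the other 7 are covered over 58.8% to 100% of their length.

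Genes that work with these proteins were read against the same 47.5% of protein-coding genes with an NMI. Of the other CXXC-domain genes, 4 of 4 had an NMI: Cxxc1, which encodes CFP1 of the SET1 complex, Kmt2a, Kmt2b and Dnmt1, with widths between 1020 and 2732 bp. All 10 genes listed for the KDM2B Polycomb complex had an NMI, among them Pcgf1, Bcor and Rnf2, with Kdm2b itself counted. Of the genes listed for the TET pathway, 9 of 13 had an NMI, including Tdg, the glycosylase that removes oxidised cytosines, and Ogt, a partner of TET enzymes. Among those without were Dppa3 and Nanog, genes of germ and pluripotent cells. Of the MBD1 partners, 3 of 5 had an NMI, including Setdb1, and Atf7ip and Atf7ip2 did not. All 7 genes listed for Wnt signalling and Dishevelled, the pathway that CXXC4 and CXXC5 restrain, had an NMI. Of the other JmjC demethylases, 14 of 16 had an NMI, and the 2 without were Kdm5d, on the Y chromosome, where the list held no NMI, and Kdm6b, 1553 bp from an NMI. An NMI list does not measure expression and so cannot check the epithelial label directly. An NMI lay at 0 of 6 mammary epithelial marker genes (Krt8, Krt18, Krt5, Krt14, Cdh1 and Epcam) and at 4 of 4 mesenchymal ones (Vim, Cdh2, Zeb2 and Pdgfra), and how this bears on the 9 genes was not tested.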

How the data were processed

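The deposited file held the chromosome, start and end of each NMI of the BioCAP library on mm10, with no score. Per the methods of the study, the authors aligned reads with Bowtie2, processed them with SAMtools and called NMIs with MACS (MACS2 in the submitters' processing notes) at a false discovery rate of 0.01. Not given in the sources used here were tool versions and whether the input served as control for this list. Discarded multi-mapping reads and the calling threshold can leave islands out. Deposited starts were turned to 1-based positions. Transcripts came from GENCODE M21 on GRCm38 (mm10) for chromosomes 1 to 19, X and Y, which held 13489 of the 13491 NMIs. An NMI counted where it covered a TSS by at least 1 bp. A CXXC domain was called where a translated annotated protein held the cysteine pattern of the domain with its fixed glycine, and a JmjC motif likewise. All steps were run in Python 3.11.15 with NumPy 2.4.6 and were tested on simulated data. The 9 genes and all lists were chosen with earlier results of these data known. Some genes of these lists are not reported here.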

Additional observations from a re-analysis of the deposited data

How the results depend on the processing

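Of 56 alternatives over 10 results, 16 moved the value: a count by more than 1.5 times, the share of all genes beyond its exact 95% binomial interval, or a CpG median by any change of window. The other 40 included 20 and 22 of 55 covered promoters with starts within 250 or 1000 bp counted, and 10 of 17 islands by looser criteria. These counts were not set against shares over all promoters or islands at the same settings. With starts within 250 or 1000 bp counted, with protein-coding transcripts or with basic transcripts only, the share of all protein-coding genes with an NMI was 48.2%, 49.0%, 46.7% and 46.4%. It was 45.3% without NMIs narrower than 572.5 bp, 46.3% with the middle of the NMI within 500 bp of the start, 42.5% with the outermost start and 43.6% with the start of the longest protein. The last of these was chosen after seeing the data, as were the alternatives that left out incomplete 5′ ends and the looser CXXC pattern. The 7 covered genes were the same under every alternative except the outermost start (0 genes, 0 of 9 starts) and the start of the longest protein (6 genes). With basic transcripts only, 16 of 24 starts were covered, against 32 of 81 with all transcripts, so that the count fell but the share rose. With starts joined over 1000 bp, 3 of 27 internal promoters were covered. Neither count was set against a share over all genes at the same setting. With 250 bp on each side the median CpG density was 8.18 per 100 bp in NMIs and 1.70 outside, and with 1000 bp it was 4.90 and 1.92. No paired analysis was possible because only the list from 1 library was analysed, and for the same reason no replicate could be left out. The list gives no depth, and a start without an NMI may be non-methylated at a level below the calling threshold.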

Other observations

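The NMI-free stretch that holds Cxxc4 ran over 1667 kb of chromosome 3, between the NMIs of Tet2 and Cenpe. Only 274 of the 13469 gaps between neighbouring NMIs on the same chromosome were longer, and the median gap was 51.8 kb. Starts of 3 protein-coding genes lay in it, those of Cxxc4, Tacr3 and, by its upstream start, Tet2. It held 3 predicted CpG islands, of which 2 were those of Cxxc4.

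The nearest NMI upstream of Mbd1 was that of Cxxc1, which encodes CFP1, at 51.5 kb, and the NMI of Setd1a, a catalytic subunit of the SET1 complex, lay 28031 bp from the nearest Fbxl19 start. Paralogs flanked 2 of the genes: the nearest NMI upstream of Kdm2b was that of Orai1, 24.8 kb away, and an NMI of Orai3 overlapped the end of Fbxl19. The cysteine pattern used to call a CXXC domain matched proteins of 37 of the 21938 protein-coding genes, among them 7 of the 9 described here and 4 of the 4 other CXXC-domain genes listed, and whether the other matches are such domains was not tested.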
